A study of Mus musculus with 2 samples.

Results

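The genes described here are the metallothioneins Mt1 and Mt2 and 8 target genes of the antioxidant transcription factor Nrf2, namely Nqo1, Hmox1, Gclc, Gclm, Txnrd1, Srxn1, Gsr and Slc7a11. They were taken by name, with no threshold on their values, and 9 of the 10 have a row among the 30774 gene identifiers of the array. No row carries the name or the Entrez number of Gsr, so this gene was not analysed here. The array experiment asked which genes respond to CHIR99021 (CHIR), an inhibitor of glycogen synthase kinase 3 (GSK3), in mouse embryonic stem cells (mESCs). Both groups were B6 mESCs, labelled as derived from the inner cell mass of E3.5 embryos, grown in serum medium with the cytokine LIF. One group received LIF alone, and the other received LIF together with CHIR for 12 h. Each group is 1 array of total RNA. The labels give no dose of CHIR, and the culture methods of the study describe another mESC line.

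Metallothioneins are small, cysteine-rich proteins that bind zinc and copper. Their genes are switched on by the zinc-sensing factor Mtf1, which binds metal response elements. Nrf2, encoded by Nfe2l2, pairs with small Maf proteins on antioxidant response elements of genes for glutathione synthesis, thioredoxin reduction, heme breakdown and quinone reduction. Keap1 and Cul3 mark Nrf2 for degradation, and GSK3 is known to open a further route to its degradation through β-TrCP. Cystine uptake, glutathione and thioredoxin together keep the thiol balance of cells, pluripotent ones included.

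Promoter sequences are shown for the 4 detected members that have an entry in the RefSeq table of assembly GRCm38.p6, because they place the metal and antioxidant elements of these genes side by side. Of the members, 7 have an entry, with 9 start sites among them. Each line gives the 250 bases before the annotated start, 5′ to 3′, with matches in capitals. The motifs searched on both strands were the metal response element (TGCACNC or TGCGCNC), the core of the antioxidant response element (TGACNNNGC) and the AP-1 site (TGACTCA or TGAGTCA), which can overlap the antioxidant core.
Mt1 (chr8:94178839-94179088, plus strand): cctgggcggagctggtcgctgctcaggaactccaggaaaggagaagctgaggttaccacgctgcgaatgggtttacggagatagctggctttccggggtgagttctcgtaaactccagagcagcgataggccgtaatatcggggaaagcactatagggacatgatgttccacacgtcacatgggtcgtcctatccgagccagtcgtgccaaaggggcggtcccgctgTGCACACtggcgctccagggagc
Mt2 (chr8:94172368-94172617, plus strand): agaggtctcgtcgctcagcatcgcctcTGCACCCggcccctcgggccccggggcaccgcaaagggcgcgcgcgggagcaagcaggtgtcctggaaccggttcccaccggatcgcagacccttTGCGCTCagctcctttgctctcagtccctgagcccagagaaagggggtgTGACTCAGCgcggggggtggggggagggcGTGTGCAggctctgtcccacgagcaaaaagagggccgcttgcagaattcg
Gclm (chr3:122245307-122245556, plus strand): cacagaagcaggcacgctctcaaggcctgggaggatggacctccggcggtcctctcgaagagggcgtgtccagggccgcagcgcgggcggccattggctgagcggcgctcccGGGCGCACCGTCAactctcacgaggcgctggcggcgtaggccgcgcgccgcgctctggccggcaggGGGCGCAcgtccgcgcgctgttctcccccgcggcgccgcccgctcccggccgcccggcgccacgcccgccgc
Srxn1 (chr2:152105274-152105523, plus strand): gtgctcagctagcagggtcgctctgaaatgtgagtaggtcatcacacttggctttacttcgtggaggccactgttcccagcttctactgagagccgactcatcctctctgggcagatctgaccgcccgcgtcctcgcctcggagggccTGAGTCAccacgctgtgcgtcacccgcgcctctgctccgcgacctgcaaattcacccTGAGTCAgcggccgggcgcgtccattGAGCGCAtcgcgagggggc

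In the window from 250 bases before to 50 bases after the start, Mt1 had 3 metal response elements and Mt2 had 4. In Mt1, 1 match lay before the annotated start (-23 to -17), and the others began at positions 3 and 21 after it. Whether transcription of Mt1 begins at this start in these cells was not tested. Mt2 also held an antioxidant core, TGACTCAGC, at -79 to -71, which contains an AP-1 site. Gclm had 3 metal response elements and 1 antioxidant core, at -134 to -126, which overlaps a metal response element at -138 to -132. Srxn1 had 2 AP-1 sites (-102 to -96 and -45 to -39), 1 metal response element, and 1 antioxidant core that began 29 bases after the start. The AP-1 site at -45 to -39 is followed by GC, giving TGAGTCAGC. This has G where the searched core TGACNNNGC has C, so it was not counted as an antioxidant core. Such variants of the core were not searched in any window. No match was found for Nqo1 or Slc7a11 in this window. Bases outside the window were not searched for any gene, so a motif missing here may lie elsewhere. Of the 3 starts of Txnrd1, 1 had an antioxidant core. Among 32851 windows of this length, 25.7% held a metal response element, 12.4% an antioxidant core and 5.2% an AP-1 site. These matches are letters in a window and do not show binding.

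For each array the authors deposited background-subtracted signal intensities, with a detection p-value beside every one. A detection p-value compares the signal with negative control beads, and under 0.01 a gene was called detected. By this measure 5 members were detected, each on both arrays: Mt1, Mt2, Hmox1, Gclm and Srxn1. The other 4 with a row (Nqo1, Gclc, Txnrd1 and Slc7a11) were detected on neither. Fold changes are ratios of the signal in LIF plus CHIR to that in LIF. With 1 array per condition there is no replicate, and no test of a difference was possible. The limit of 1.5-fold, used for genes raised by CHIR in the study, serves as a description of size. Of 9597 genes detected on at least 1 array, 4.11% were at least 1.5-fold higher with CHIR and 4.03% at least 1.5-fold lower. As a check of the treatment, Axin2, a feedback target of Wnt/β-catenin signaling, had a signal of 314.1 in LIF and 1177.9 with CHIR. Of the cell type markers, 8 of 9 for mESCs, 0 of 9 for fibroblasts and 1 of 8 for endoderm (Sox7) were detected. The summed signal was 918.3 in LIF and 1089 with CHIR for fibroblast markers, mostly from Vim (658.7 and 828.6) and Thy1 (222.3 and 225.3), and 131.2 and 117.1 for endoderm markers. Vim and Thy1 failed detection by p-values combined over several probes, so their transcripts are not shown to be absent. Gata4 had a signal of 11.4 on each array, and Col1a1 and Foxa2 were below 0 on both.

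**Figure D1:**
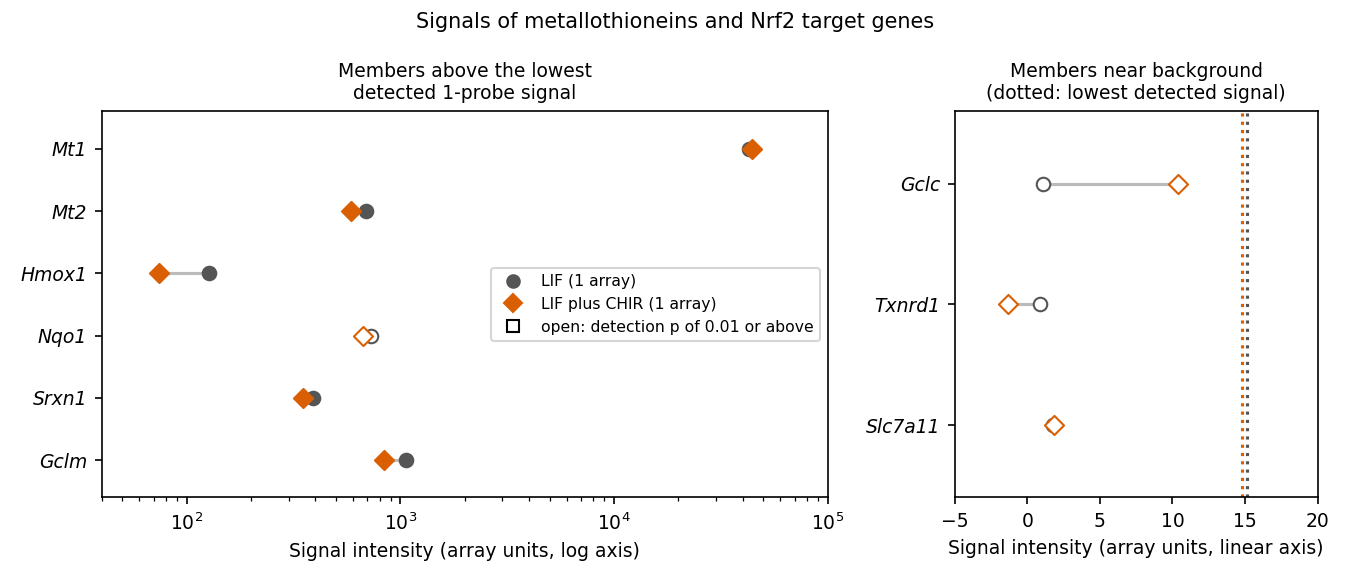
Signal intensity of the 9 members with a row, with 1 point for the LIF array and 1 for the LIF plus CHIR array, on a log axis (left) and a linear axis (right), with open symbols where the detection p-value was 0.01 or above. On the log axis Hmox1 has the widest gap among detected members (127.2 and 74.4) and the Mt1 points nearly coincide, and Gclc, Txnrd1 and Slc7a11 lie below the lowest detected signals (15.1 in LIF, 14.8 in LIF plus CHIR). Positions of different genes come from different probes and are not comparable.

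Mt1 (Entrez gene 17748, band 8qC5), which encodes metallothionein 1, had a signal of 42571 in LIF and 44122 with CHIR. This is a log2 fold change of 0.05, and the signal with CHIR was 104% of that without. Mt2 (Entrez gene 17750, same band), which encodes metallothionein 2, had 690.9 in LIF and 589.3 with CHIR, a 1.17-fold lower signal (log2 fold change -0.23). The log2 fold changes of the metallothioneins thus differed in sign, and neither passed 1.5-fold. For most genes with a brighter signal of 1000 or more, as for Mt1, log2 fold changes ran from -0.29 to 0.28. For most with 100 to under 1000, as for Mt2, they ran from -0.51 to 0.50. Neither sign is read as a response to CHIR, since both metallothioneins lay inside these ranges. Their annotated starts are 6471 bases apart on the same strand. The genes are close relatives, the probe sequences are not in the tables, and hybridization of one transcript to the other's probe was not tested.

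The array also carries the other metallothioneins of the same band. Mt4, known from squamous epithelia, had 172.4 in LIF and 157.1 with CHIR (log2 fold change -0.13). Mt3, a form best known from brain, had 66.2 in LIF and 27.2 with CHIR, where its detection p-value of 0.0694 put it among undetected genes. By these signals Mt3 was 2.44-fold lower with CHIR, a ratio that rests on an undetected signal. With a minimum signal taken from identifiers that look like 1 probe (47.1), it was at least 1.41-fold lower, under the limit. Of 13 genes tested in band 8qC5, 1 was at least 1.5-fold higher (Cx3cl1, named after its value was seen) and 1 lower (Mt3), and the median log2 fold change was -0.03. Among genes whose brighter signal was under 100, as for Mt3, 10.4% were past the limit as higher and 10.3% as lower.

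Of the genes of glutathione synthesis, Gclm (Entrez gene 14630, band 3qG1) encodes the modifier subunit of glutamate-cysteine ligase, the first and rate-limiting enzyme. Its signal was 1062.7 in LIF and 836.0 with CHIR, which is 78.7% of the LIF value (log2 fold change -0.35). Where the brighter signal was 1000 or more, 1.19% of 3264 genes were at least 1.5-fold higher and 1.01% lower, and the middle 90% of log2 fold changes ran from -0.29 to 0.28. Gclm did not reach 1.5-fold but lay below this range. Its signal with CHIR was under 1000, however. Where the brighter signal was 100 to under 1000, the range was -0.51 to 0.50, which holds the Gclm value.

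Gclc (Entrez gene 14629, band 9qE1), the catalytic subunit of the same enzyme, had a signal of 1.08 in LIF and 10.4 with CHIR, with detection p-values of 0.327 and 0.203. Slc7a11, the cystine carrier of the xc- transporter, had 1.8 and 1.85, with detection p-values of 0.441 and 0.503. Its row has no Entrez number or band and was matched by symbol. Neither signal was above the negative controls on either array, so no fold change is given. The arrays therefore measured only the modifier subunit, and not the catalytic subunit or the cystine carrier.

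Srxn1 (Entrez gene 76650, band 2qG3) encodes sulfiredoxin, which restores over-oxidized peroxiredoxins. Its signal was 391.5 in LIF and 350.2 with CHIR, a 1.12-fold lower signal (log2 fold change -0.16). Its detection p-values (1.63e-09 and 5.49e-09) are smaller than a single probe can give and read as combined over several probes. Txnrd1 (Entrez gene 50493, band 10qC1), the cytosolic thioredoxin reductase, had signals of 0.893 and -1.31, not above the negative controls (detection p-values 0.331 and 0.401). The array annotation describes its row as transcript variant 1, and other transcripts of the gene may go unseen.

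Hmox1 (Entrez gene 15368, band 8qC1) encodes heme oxygenase 1, which breaks heme down to biliverdin, carbon monoxide and iron. Its signal was 127.2 in LIF and 74.4 with CHIR, or 58.5% of the LIF value. This is a 1.71-fold lower signal (log2 fold change -0.77), and Hmox1 was the only detected member past 1.5-fold in either direction. Among 4510 genes with a brighter signal from 100 to under 1000, 3.68% were at least 1.5-fold lower and 3.66% at least 1.5-fold higher. Hmox1 lay near the lower edge of this band, and with a brighter signal under 100 the shares were 10.3% lower and 10.4% higher. Whether fewer cells with the transcript or less transcript per cell lay behind a lower signal cannot be told apart in bulk RNA. The signal with CHIR lay close to the negative controls, since the lowest signal of a 1-probe identifier above all of them was 70.7 on that array and 75.5 on the LIF array. The difference, LIF plus CHIR minus LIF, was -52.7 units of signal, and the SD of the background fitted on 1-probe identifiers was 15.4 in LIF and 15.3 with CHIR. The call was lost under normexp background correction fitted on all identifiers (log2 fold change -0.046), whose fitted background SD was 588.4 in LIF and 585.8 with CHIR. Fitted on 1-probe identifiers it held, at -0.66.

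Nqo1 (Entrez gene 18104, band 8qD3) encodes a quinone reductase that is widely used as a readout of Nrf2. Its signal was 725.4 in LIF and 666.0 with CHIR, which is 91.8% of the LIF value. The detection p-values were 0.14 and 0.224, so Nqo1 did not count as detected although its signal was far above the lowest detected signals of 1-probe identifiers (51.9 and 47.1). These p-values are not whole multiples of 1 over 936, the number of negative controls, and read as combined over probes that do not all detect the gene. With detection judged by signal instead, Nqo1 entered with a log2 fold change of -0.12 and stayed under 1.5-fold.

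**Figure D2:**
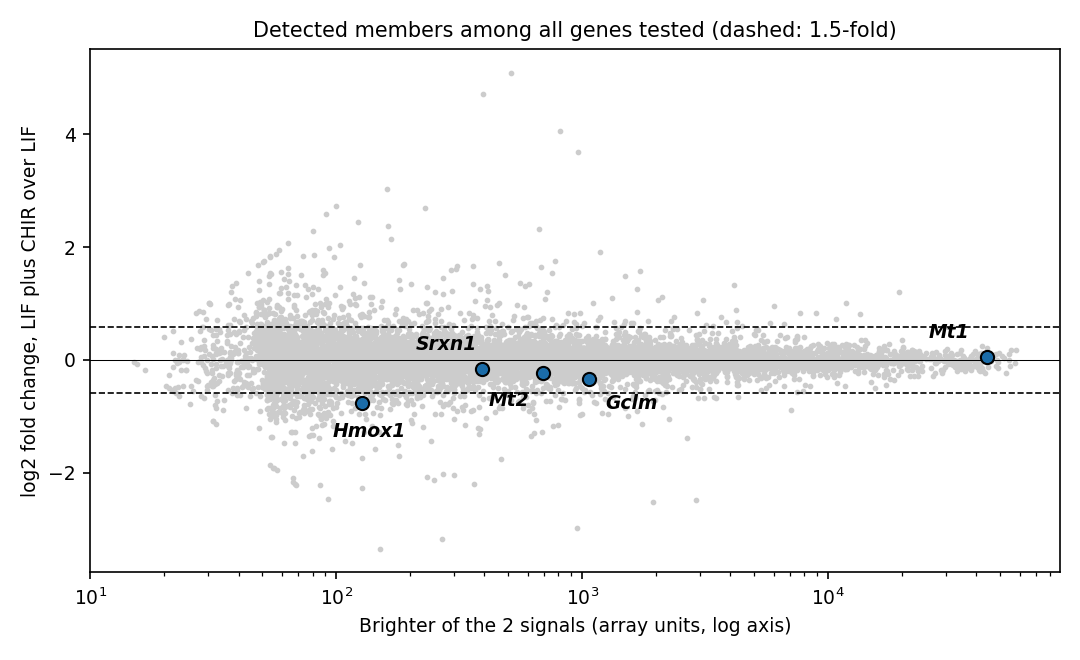
Log2 fold change of LIF plus CHIR over LIF against the brighter of both signals for 9597 genes tested (grey), with the 5 detected members in blue and the 1.5-fold limits dashed. The grey cloud narrows with signal. Hmox1 lies under the lower limit at -0.77 and the other 4 lie between -0.35 and 0.05.

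Over the detected members, 0 were at least 1.5-fold higher and 1 was lower, beside 4.11% and 4.03% of all genes tested. Lower signals with CHIR were seen for 4 of 5 (Hmox1, Gclm, Mt2 and Srxn1) and a higher one for Mt1. The median log2 fold change was -0.23, against 0.00 over all genes, of which 49.8% were below 0. At 5 genes, measured once each, these counts describe the arrays and do not separate the members from other genes.

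**Figure D3:**
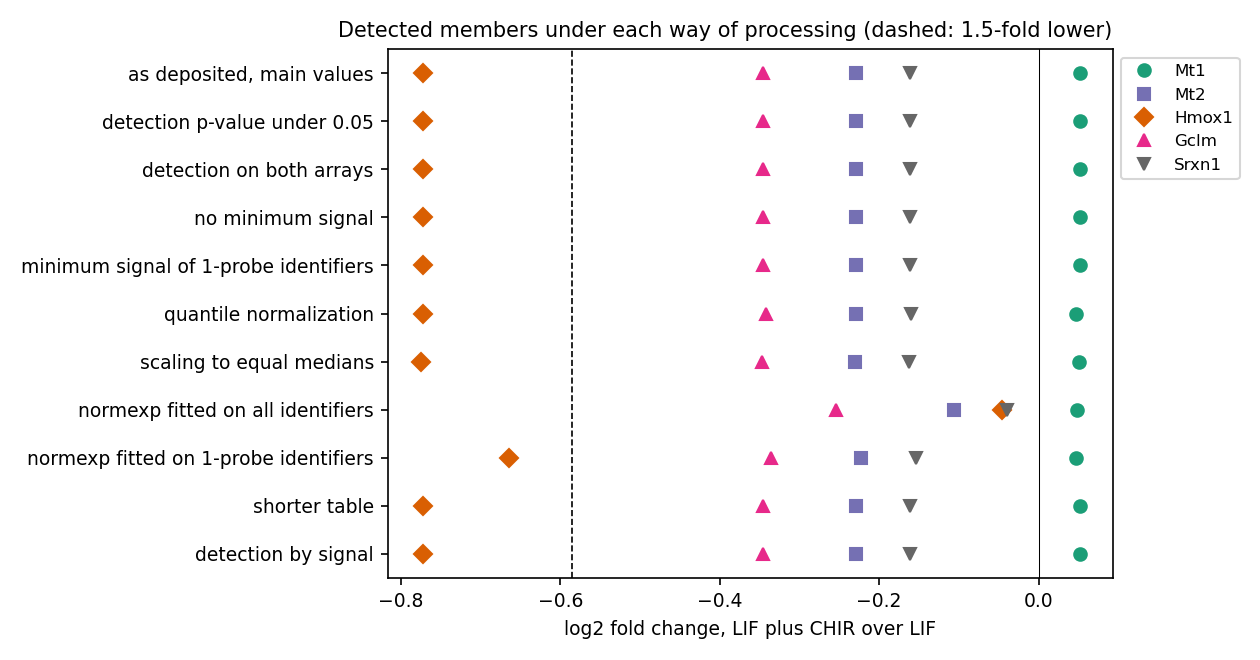
Log2 fold change of the 5 detected members under the main processing and 10 alternatives, with the limit of 1.5-fold lower dashed. All points stay close to the main values except under normexp correction fitted on all identifiers, where Hmox1 moves from -0.77 to -0.046, and, to a lesser extent, normexp fitted on 1-probe identifiers, where it is at -0.66.

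The regulators of Nrf2 were read from a list of 15 genes, of which 9 were detected. Of these, 1 was at least 1.5-fold higher and 0 were lower, beside 4.11% and 4.03% of all genes tested. The median log2 fold change was 0.09. Nfe2l2, which encodes Nrf2 itself, had 113.0 in LIF and 124.9 with CHIR. Its detection p-values, 0.332 and 0.0652, read as combined over several probes, so it did not count as detected. With detection judged by signal, as for Nqo1, it entered with a log2 fold change of 0.14. Its relative Nfe2l1 had 3402.2 and 3713.4 (log2 fold change 0.13). Of the ubiquitin ligase that holds Nrf2 low, the adaptor Keap1 had 380.6 and 462.1 (0.28), the scaffold Cul3 had 4396.3 and 4508.6 (0.04) and the ring subunit Rbx1 had 4765.8 and 4746.4 (-0.01). These subunits all lay within 1.5-fold.

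By RNA, the genes of the GSK3 route gave similar readings where they were detected. The activity of GSK3 and the level of Nrf2 protein were not measured on these arrays. Gsk3b had 457.0 and 461.2 (log2 fold change 0.01), and Btrc, which encodes β-TrCP, had 140.7 and 121.8 (-0.21), detected only in LIF. Gsk3a (30.5 and 41.4) and Fbxw11 (2.08 and -8.96), which encodes the second β-TrCP, were not detected. Sqstm1, a Keap1-binding autophagy receptor and itself an Nrf2 target, had 5085.8 and 6768.3, a 1.33-fold higher signal (log2 fold change 0.41).

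Small Maf and Bach proteins share the Nrf2 elements. Mafg had 1407.0 and 1499.9 (log2 fold change 0.09), whereas Mafk and Maff were at 2 or lower on both arrays. Bach2, a repressor of Maf elements best known from B cells, had 100.6 in LIF and 305.9 with CHIR, a 3.04-fold higher signal (log2 fold change 1.60). It was the one regulator past 1.5-fold. Under normexp correction fitted on all identifiers, whose background SD (588.4 in LIF, 585.8 with CHIR) exceeded both Bach2 signals, it had 0.19, under the limit. Fitted on 1-probe identifiers it had 1.46. Bach1, the heme-sensing repressor of Hmox1, had 256.7 and 243.4, with detection p-values of 0.39 and 0.27, and like Nqo1 did not count as detected. The part of either Bach gene in the lower Hmox1 signal was not tested.

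Heme and iron genes lie closest to Hmox1 in function. Of 11, 10 were tested, with a median log2 fold change of -0.08. By 1.5-fold, 0 were higher and 1 was lower, beside 4.11% and 4.03% of all genes tested. The lower one was Slc40a1, the iron exporter ferroportin and an Nrf2 target, with 1934.7 in LIF and 1165.2 with CHIR (1.66-fold lower, log2 fold change -0.73). The ferritin heavy chain Fth1 had 27078 and 23038 (-0.23). Tfrc, the transferrin receptor that takes up iron, had 15747 and 19991, a 1.27-fold higher signal (0.34).

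Of 19 genes of metal handling and the metallothionein family, 13 were tested. By 1.5-fold, 0 were higher and 1 was lower (Mt3), beside 4.11% and 4.03% of all genes tested. The median log2 fold change was 0.10. Mtf1, the activator of Mt1 and Mt2, had 271.3 and 262.0 (-0.05). Slc30a1, a zinc exporter that Mtf1 also controls, was not detected at 0.01 (37.0 and 31.9). Slc39a6, a zinc importer, had 438.0 and 596.5 (0.45). The copper chaperones Atox1 (9742.1 and 8163.7, -0.26) and Cox17 (8104.2 and 8866.7, 0.13) differed by less than 1.5-fold.

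Among 36 genes that use or conjugate glutathione, 35 had a row and 27 were tested. By 1.5-fold, 1 was higher and 0 were lower, beside 4.11% and 4.03% of all genes tested. The median log2 fold change was -0.11, with 19 below 0 and 8 above. Gsta3, a glutathione S-transferase and Nrf2 target, had 303.1 in LIF, where its detection p-value was 0.0299, and 469.9 in LIF plus CHIR (1.55-fold higher, log2 fold change 0.63). The call was lost under normexp correction fitted on all identifiers and where detection was required on both arrays. Under normexp fitted on 1-probe identifiers it held, at 0.60. Gstm7 had 53.9 and 36.1, a 1.49-fold lower signal, and was not detected with CHIR. With the minimum of 1-probe identifiers it was at least 1.15-fold lower. Of genes detected on both arrays, Gpx3, a secreted peroxidase, had the lowest ratio, with 365.3 and 253.9 (-0.53). The peroxidase Gpx1 (49014 and 44365, -0.14) and the transferase Gsta4 (11840 and 10657, -0.15), the brightest of the list, were within 1.5-fold.

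Of 16 thioredoxin and peroxiredoxin genes, 11 were tested, with a median of 0.08 and 1 at least 1.5-fold higher (4.11% over all genes). This was Txn1, thioredoxin itself, with signals of only 14.2 and 30.4, both under the minimum for 1-probe identifiers, so that the size of its change is not measured. The call was lost with that minimum, to which both signals were raised. The log2 fold change of -0.14 there is the ratio of the minimums (51.9 in LIF, 47.1 with CHIR) and gives no direction for Txn1. The call was also lost under normexp correction fitted on all identifiers (0.013) or on 1-probe identifiers (0.41). Where detection was required on both arrays or judged by signal, Txn1 was not tested. Txnip, which binds and inhibits thioredoxin, had 6637.9 and 4842.3 (-0.46). Prdx2 had 10442 and 11683 (0.16). Prdx1, a known Nrf2 target, had 12610 in LIF and 11409 with CHIR but failed detection by its combined p-values (0.0407 and 0.106).

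Genes that supply NADPH, the reductant of both systems, showed no signal past 1.5-fold among 7 tested of 9, with a median of 0.11. They ran from Tkt (1291.8 and 1111.7, -0.22) to Idh2 (60.3 and 70.8, 0.23), with the bright Taldo1 (13920 and 13469) at -0.05 and Pgd (10041 and 9153.9) at -0.13. Of 12 quinone, carbonyl and xenobiotic enzymes, 7 were tested and 0 passed the limit, with a median of 0.07. The quinone reductase Nqo2 had 942.4 and 663.7 (-0.51) and the carbonyl reductase Cbr3 had 1519.7 and 1131.3 (-0.43), while the epoxide hydrolase Ephx1 had 456.5 and 619.7 (0.44). Akr1a1, an aldehyde reductase, had 16698 and 16227 (-0.04). Of 6 genes against superoxide and peroxide, 4 were tested and 0 passed, from Park7 (29321 and 25887, -0.18) to Sod2 (7709.2 and 8470.3, 0.14), with Sod1 (14102 and 13556) at -0.06 and a list median of -0.07.

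Slc7a11 is also a target of Atf4, the factor of the amino acid response. Its partner chain Slc3a2 was not detected either (3.54 and -3.69). Of 8 genes in this list, 6 were tested and 1 was at least 1.5-fold higher (4.11% over all genes), with a median of -0.08. This was Asns, asparagine synthetase, with 2289.1 in LIF and 4222.8 with CHIR (1.84-fold higher, log2 fold change 0.88). Within 1.5-fold, Atf4 (3419.1 and 3185.1, -0.10) and its target Trib3 (688.9 and 635.7, -0.12) were slightly lower. Ddit3 of the same list was higher (266.7 and 316.1, 0.25), also within 1.5-fold.

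**Figure D4:**
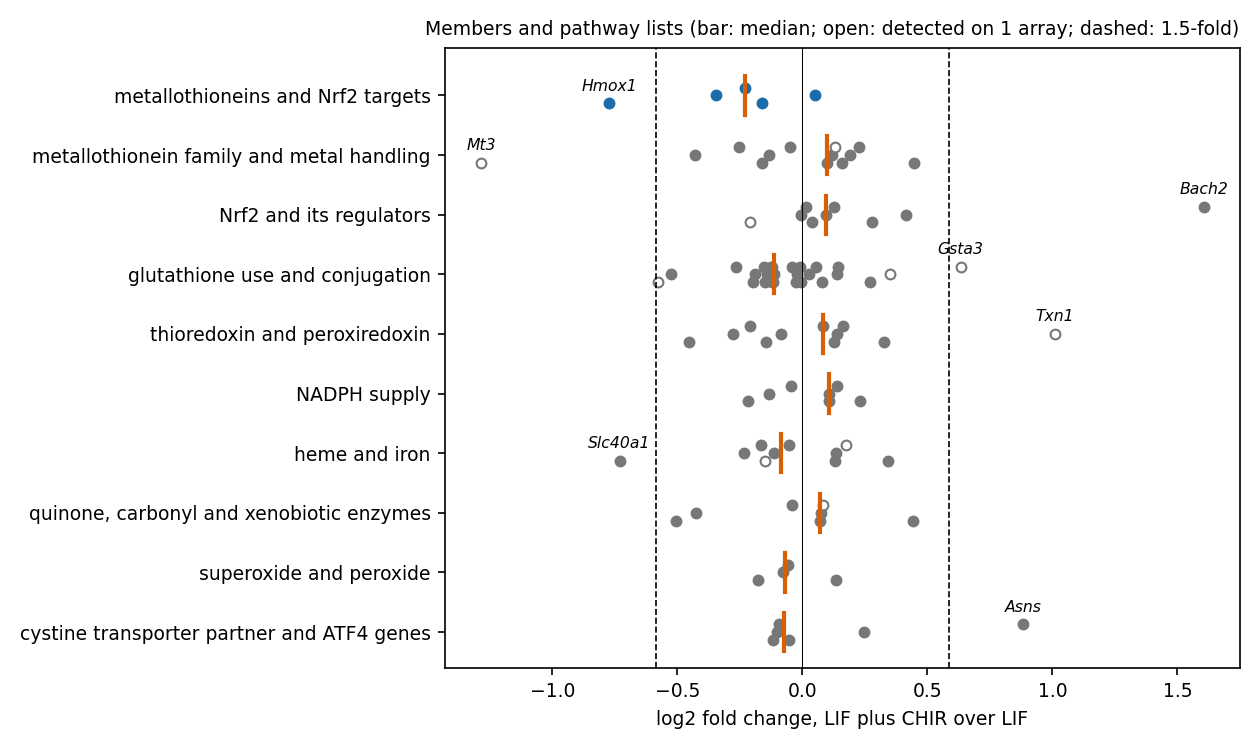
Log2 fold change of LIF plus CHIR over LIF for each tested gene of the members and the 9 pathway lists, with list medians as bars, the 1.5-fold limits dashed and genes detected on 1 array as open points. Hmox1, Slc40a1 and Mt3 lie past the lower limit, and Bach2, Txn1, Asns and Gsta3 past the upper one. With the minimum signal of 1-probe identifiers, both Txn1 signals were raised to it and Txn1 was not past the limit.

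Over the 9 pathway lists, 94 of 132 genes were tested, of which 4 (4.26%) were at least 1.5-fold higher and 2 (2.13%) lower. The median log2 fold change was -0.02, with 43 above 0 and 51 below. Over all genes tested, the shares were 4.11% higher and 4.03% lower. These background shares depend on signal, from 10.4% higher and 10.3% lower under 100 to 1.19% and 1.01% at 1000 or more. The lists were not matched to the background by signal. Their shares, at counts of 4 and 2, are therefore not read as near, above or below it. The 4 higher genes include Txn1, for which the size of the change was not measured.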

How the data were processed

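Total RNA from mESCs kept in LIF, without or with CHIR, was labelled with biotin and hybridized to Illumina mouse beadchips, with 1 array per condition. Groups were taken from the sample labels. The deposited values are linear signal intensities, already background-subtracted and nearly equal in distribution between the arrays (95th percentile 3093 and 3077). Beside them the authors deposited detection p-values. The software, background method and normalization are not given in the sources used here. Of the 2 deposited tables, the longer is named as not normalized and the shorter as normalized, yet 0 of their shared values differed, so whether the signals are normalized is not known. The longer was used. No sample column was left unused.

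Log2 fold changes were computed for genes detected at 0.01 on either array or both, after raising signals under the lowest detected signal of an array (15.1 and 14.8) to it. A gene with several identifiers was read from its brightest. Identifiers were read as 1 probe where both p-values were 0 or multiples of 1 over 936. Of 169 list entries, 142 were matched by Entrez number through the RefSeq table of GRCm38.p6, 25 by symbol, and 2 had no row. Python 3.11.15, pandas 2.3.3, numpy 2.4.6, matplotlib 3.10.9, R 4.3.3 and limma 3.58.1 were used. The calculation was tested on simulated data, with changes larger than that of Hmox1 planted only in genes brighter than it. Recovery of changes at the size and signal of Hmox1 was not tested. The number of arrays limits the precision.

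Named genes were the members, all Nrf2 regulators and, of each other list, genes past 1.5-fold, the largest rise and fall and the 2 brightest. Axin2 was named as a check. Mt4, Mtf1, Slc30a1, Gpx3, Slc3a2, Ddit3, Cx3cl1 and the cell type markers named singly fall outside this rule and were named after their values were seen. The members and lists were chosen with earlier results of these data known. No gene was named by likeness of pattern. Alternatives covered detection, minimum signal, normalization, normexp correction (offset 16), the table and a limit of 2-fold. Both normexp settings also applied quantile normalization after the correction.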

Additional observations from a re-analysis of the deposited data

How the results depend on the processing

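No paired analysis was possible because a single array stands for each condition, which leaves no test. A log2 value counted as moved when it shifted by 0.1 or more or crossed 1.5-fold, and a count when it changed by over 1.5 times. Settings that change detection, the minimum signal or the table leave the values of the 5 detected members as they are. Under the other 4, quantile normalization, scaling by medians and both normexp fits (each followed by quantile normalization), these members kept their direction. Hmox1 ran from -0.77 to -0.046, Gclm from -0.35 to -0.25, Mt2 from -0.23 to -0.11, Srxn1 from -0.16 to -0.040, and Mt1 stayed near 0.05.

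Normexp correction fitted on all identifiers gave -0.046 for Hmox1, -0.11 for Mt2 and -0.040 for Srxn1, with a member median of -0.046 and 0 members lower. It left 55 genes higher and 49 lower, with a fitted background SD of 588.4 in LIF and 585.8 with CHIR. Under it the lists of metal handling (lower), Nrf2 regulators, glutathione use and thioredoxin genes (higher) each held 0 genes past the limit. Fitted on 1-probe identifiers it gave -0.66 for Hmox1 and 0 higher thioredoxin genes. Detection on both arrays gave 202 genes higher and 227 lower, and 0 for metal handling (lower), glutathione use (higher) and thioredoxin (higher). The minimum signal of 1-probe identifiers gave 246 genes higher, 0 for metal handling (lower) and thioredoxin (higher), and a thioredoxin median of -0.084. Detection by signal, added after the data were seen, gave 0 for the last 2 counts as well. Loosening detection to 0.05 gave 681 genes higher, with 684 lower. The 2-fold limit gave 129 and 85, with 0 members lower. The causes were not tested. With the minimum of 1-probe identifiers Txn1 went from 1.01 to -0.14, which is the ratio of the minimums and holds no Txn1 signal. Dropping the minimum signal, using the shorter table, quantile normalization and scaling by medians moved none of these values.

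Low signal is a further limit, since Hmox1, Mt3, Txn1 and Gstm7 lay near the negative controls on at least 1 array. A combined detection p-value also kept bright genes such as Nqo1, Bach1 and Prdx1 out of the comparison.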
